A study of Homo sapiens with 3 samples.

Results

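The EGR factors, their NAB corepressors and the transcription factor SRF were followed in PANC-1, an established human pancreatic ductal carcinoma line, treated with cantharidin or with okadaic acid. These agents inhibit protein phosphatase 2A, which strips phosphate from many proteins, among them kinases that drive early gene expression. The 7 genes EGR1, EGR2, EGR3, EGR4, NAB1, NAB2 and SRF were chosen by name with earlier results from these arrays known, in which the 75th-percentile-scaled log2 intensity of each probe had been compared between the groups, so their levels are given as a description. All 7 were matched, by 8 probes, out of 19699 genes with a named probe. By the sample labels, cells received 20 µM of either cantharidin or okadaic acid for 24 h. The third group was labelled control, with no dose, time or solvent given. Each group was 1 sample of the same line on 1 array, so the differences carry no replicate check or p-value.

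The EGR proteins are zinc finger transcription factors whose genes belong to the immediate early class, which is switched on within minutes of a growth or stress signal without new protein synthesis. Much of this induction runs through serum response elements, where a dimer of SRF sits on a CArG box and a partner protein of the ETS family is phosphorylated by ERK and related kinases. CREB binding to cyclic AMP response elements adds to it. NAB1 and NAB2 bind the EGR proteins and repress them, partly by bringing in the NuRD chromatin remodelling complex, and NAB2 is itself a gene that EGR proteins can induce, which closes a negative feedback loop.

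Promoter stretches of EGR1, EGR2, EGR4, NAB1 and SRF are shown because they carry elements named above. The NAB2 sequence is not shown, and the EGR3 promoter is not reported here. RefSeq windows of GRCh38.p14, from 250 bases before to 50 bases after each transcript start, were searched on both strands. The motifs were the CArG box (CC, then 6 bases that are A or T, then GG), the EGR site GCGTGGGCG, the ETS site CCGGAA and the CRE core TGACG, which reads CGTCA on the other strand. These motifs do not overlap each other in the windows shown. Capitals mark the CArG boxes and CRE cores, and in NAB1 also the EGR site. The stretches lie at chr5:138465329-138465478 (plus strand) for EGR1, chr10:62816415-62816444 (minus strand) for the third annotated start of EGR2, chr2:73293549-73293698 (minus strand) for EGR4, chr2:190648890-190648919 (plus strand) for the first start of NAB1 and chr6:43171119-43171268 (plus strand) for the first start of SRF.
EGR1: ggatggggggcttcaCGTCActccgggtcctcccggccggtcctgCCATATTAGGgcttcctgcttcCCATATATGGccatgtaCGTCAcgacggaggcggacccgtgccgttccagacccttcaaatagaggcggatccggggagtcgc
EGR2: cctcagtCCATATATGGgcagcgaCGTCAc
EGR4: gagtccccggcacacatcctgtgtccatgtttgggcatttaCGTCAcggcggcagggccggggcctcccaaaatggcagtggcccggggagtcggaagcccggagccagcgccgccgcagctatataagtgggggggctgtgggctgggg
NAB1: tctgCGTCActcggccgcGCGTGGGCGgga
SRF: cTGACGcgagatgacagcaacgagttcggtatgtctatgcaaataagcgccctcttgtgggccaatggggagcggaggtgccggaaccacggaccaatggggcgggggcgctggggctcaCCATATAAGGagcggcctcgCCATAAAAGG

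EGR1 held 2 CArG boxes, starting 105 and 83 bases before the transcript start, with a CRE core on either side of the pair. The third EGR2 start had 1 CArG box 71 bases upstream and 2 CRE cores, whereas none of the 4 motifs was found at its other starts. In EGR4, 2 CRE cores were found and no CArG box. The first SRF start had CArG boxes starting 30 and 10 bases upstream, with an ETS site and a CRE core further up. NAB1 held 1 EGR site, which lies in the overlapping windows of 2 of its 3 starts. A CRE core was found in each of the 3 NAB1 windows, and the NAB2 window held none of the motifs. Of 35116 windows of this length, 1.29% held a CArG box, 0.795% the EGR site, 17.2% the ETS site and 24.6% the CRE core. A match describes these letters and does not show that a factor binds there. Other spellings and sites outside the windows were not searched, so a missing match does not show that an element is absent.

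**Figure D1:**
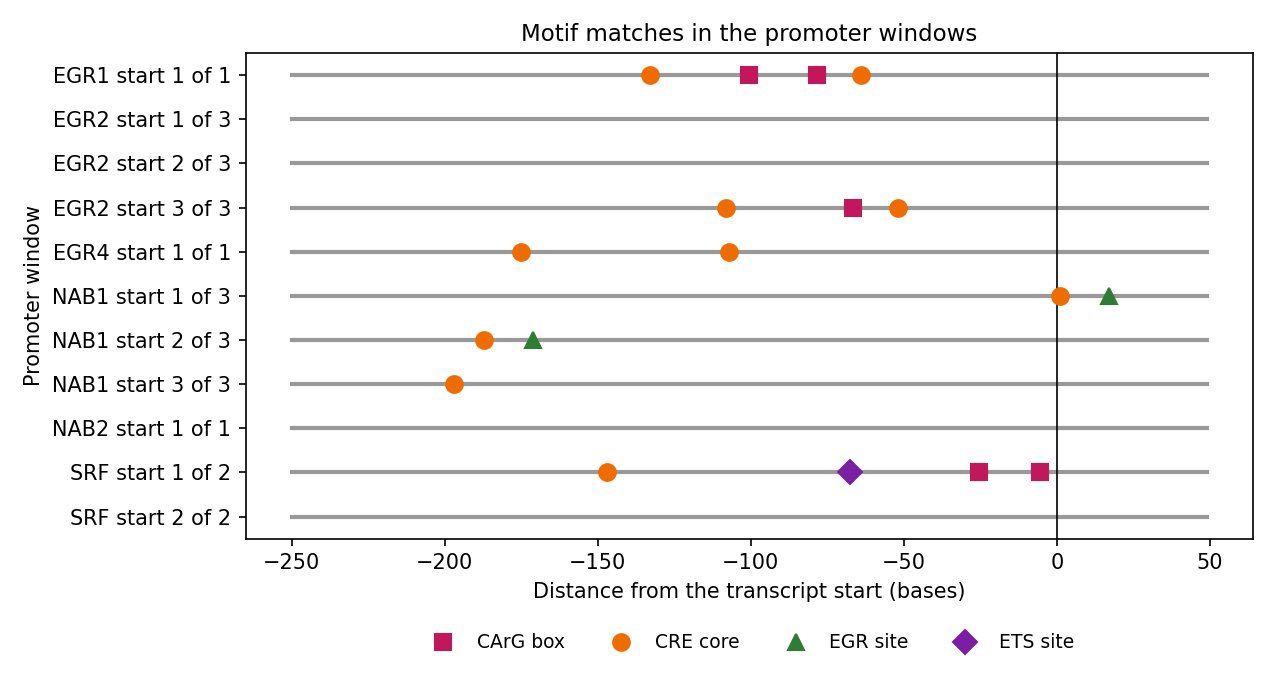
Positions of motif matches in the promoter windows of EGR1, EGR2, EGR4, NAB1, NAB2 and SRF. The x axis is the distance from the transcript start in bases, each grey line is 1 window running from 250 bases before to 50 bases after the start, and symbols mark the 4 motifs. CArG boxes are seen at EGR1, at 1 of 3 EGR2 starts and at 1 of 2 SRF starts.

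The arrays were 1-colour, with total RNA labelled with Cy3, and the brightness of a probe (the processed intensity, in scanner units) stands for the amount of its transcript. No spot was saturated, and between 23071 and 25103 of 34041 probes were well above background on an array. The dimmest such probe had an intensity between 21.9 and 58.0, which is called the floor of that array below. All arrays lay on 1 slide and in 1 scan, with slide position going with the group. Keratins of ductal epithelium fitted the label, with KRT7, KRT8, KRT18 and KRT19 between 2503 and 193320 on all arrays. Of 6 markers of other cell types, PTPRC, CD14 and CDH5 were also detected on all arrays, PDGFRB with cantharidin alone and COL1A1 in control alone, while the probe standing for PECAM1 was below background throughout and another of its 3 probes was detected. CD14 was 1838 to 11044, and whether signals of this kind played a part in the values below was not tested.

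EGR1, the best known member and an activator of growth, wound and stress genes, was very bright with both agents. Its intensity was 1003 in control cells, 78135 with cantharidin and 104523 with okadaic acid, with scanner errors of 101, 7813 and 10452. Both treated arrays stood far above control, and the control itself was 28.7 times its floor. With the 75th percentile of each array set equal, the rise was 85.8-fold with cantharidin and 87.3-fold with okadaic acid, or 6.42 and 6.45 on the log2 scale, each with a scanner error of 0.20. The values of the 2 agents differed by 0.03 on the log2 scale, which is 1.02-fold and less than this error. Over other ways of processing the arrays this difference lay between -0.13 and 0.42, so it can exceed the error. These arrays measured bulk RNA, in which fewer cells of a type and less RNA per cell cannot be told apart.

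EGR4, a family member usually linked to neurons and germ cells, was dark in control and bright in treated cells. Its intensity was 21.1 in control cells, not well above background, then 2985 with cantharidin and 59070 with okadaic acid. The transcript was thus measured only on the treated arrays, so its change is a lower bound, set against the control floor of 35.0. It was at least 93.9-fold higher with cantharidin and at least 1414-fold higher with okadaic acid, or 6.55 and 10.47 on the log2 scale. These bounds depend on the background correction, and were 4.88 and 8.72 under normexp, which models the background and adds an offset of 50. Between the agents the signal was measured on both sides, and okadaic acid was 15.1-fold higher (3.91 on the log2 scale).

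EGR2, also called KROX20 and needed for hindbrain patterning and myelination, showed the same order. The control intensity was 7.47 with a scanner error of 7.25, and the values were 1144 with cantharidin and 10113 with okadaic acid. Control was below its floor and both treated arrays were well over theirs, by 52.3 and 174 times. The gain was at least 36.0-fold with cantharidin and at least 242-fold with okadaic acid, which was 6.73-fold higher than cantharidin (2.75 on the log2 scale). On that scale the bounds were 5.17 and 7.92, and under normexp 3.76 and 6.44.

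EGR3, which acts in T cells and in muscle spindle development, was detected on 1 array. Its intensity was 6.95 in control cells and 5.26 with cantharidin, both below background, and 445 with okadaic acid, at 7.66 times the floor of that array. With okadaic acid it was at least 10.6-fold higher than in control and at least 15.5-fold higher than with cantharidin. The first bound is 3.41 on the log2 scale and was 2.65 under normexp. No fold is given for cantharidin against control, since neither array measured the transcript, so a change there was not detectable on these arrays.

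Across the family, after scaling, EGR1 differed little between the agents, whereas EGR2, EGR3 and EGR4 were each brighter with okadaic acid. Whether EGR1 differed in this from the other members was not tested, as the design has 1 array a group. The bounds of EGR2, EGR3 and EGR4 depend on the floor of the array, and probe levels cannot be compared with one another because probes differ in brightness for equal amounts of RNA. When genes were ranked from the highest difference, with bounds at their bound value, EGR4 was in place 6, EGR1 in place 9 and EGR2 in place 44 of 16644 with cantharidin. With okadaic acid EGR4 was in place 1, EGR2 in place 6, EGR1 in place 11 and EGR3 in place 228 of 16166.

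**Figure D2:**
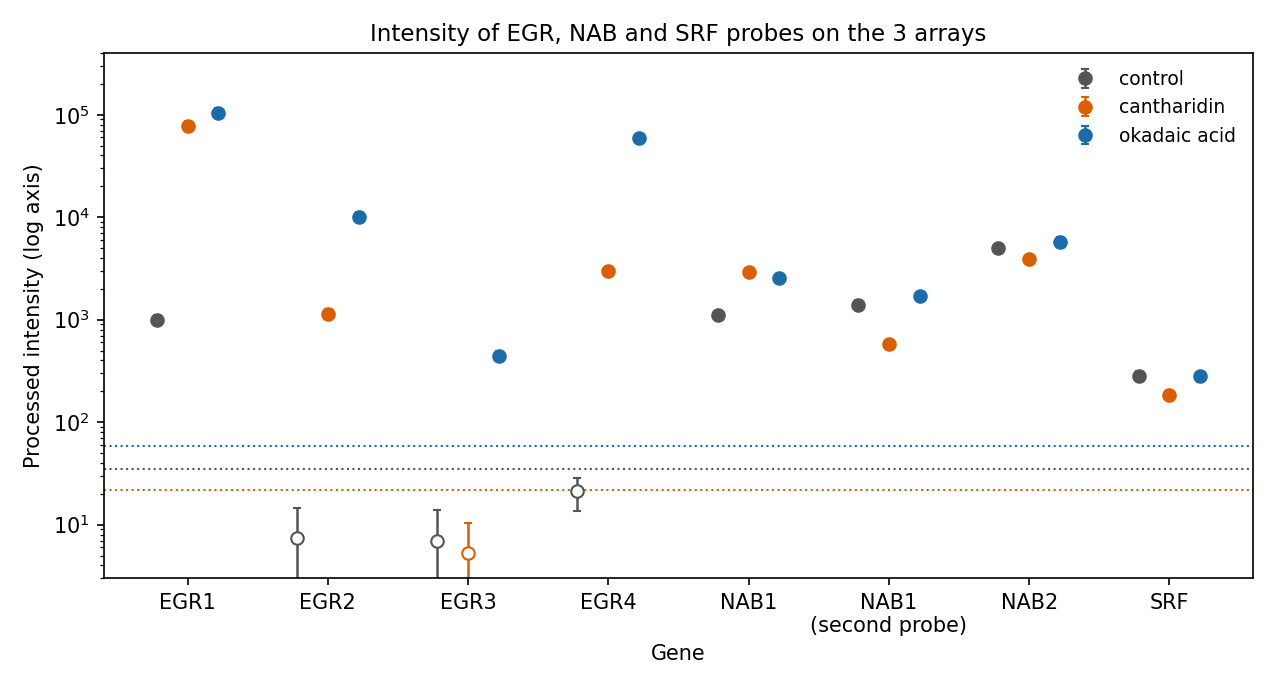
Processed intensity (log axis, scanner units) of the 8 probes of the 7 genes, with 1 point per array for control, cantharidin and okadaic acid. Bars are the scanner error of the spot, open circles are probes not well above background, dotted lines are the floor of each array, and the bars of EGR2 and EGR3 run off the lower end of the axis. The 3 open control circles of EGR2, EGR3 and EGR4 lie under the control floor of 35.0. NAB2 and SRF vary less than these genes, with SRF at 285 in control, 186 with cantharidin and 280 with okadaic acid.

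NAB2, the corepressor that EGR proteins can induce, stayed close to control. Its intensity was 4973 in control cells, 3894 with cantharidin and 5773 with okadaic acid, with scanner errors of 497, 389 and 577. The treated arrays lay on either side of control. After scaling, the differences were -0.21 with cantharidin and -0.04 with okadaic acid on the log2 scale. Neither reached 1.5-fold, the threshold used for a call here, and the okadaic acid value was smaller than its scanner error of 0.20. Okadaic acid minus cantharidin was 0.17. Each of these values comes from 1 probe with 1 spot.

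NAB1 is the more steadily expressed corepressor, and its 2 probes disagreed. The probe with the higher mean log2 signal (A_23_P209805) read 1107 in control cells, 2931 with cantharidin and 2556 with okadaic acid. It was higher on both treated arrays, by 2.91-fold (1.54 on the log2 scale) with cantharidin and 1.93-fold (0.95) with okadaic acid. The second probe (A_24_P191417) read 1399, 577 and 1688. This probe was 2.20-fold lower with cantharidin (-1.14) and close to control with okadaic acid (0.02). Between the agents the first probe was 1.51-fold lower with okadaic acid, just past the threshold, and the second 2.23-fold higher. The probes therefore give opposite directions for cantharidin, and the direction of NAB1 as a gene is uncertain. With the median over both probes NAB1 was at 0.20 with cantharidin and 0.48 with okadaic acid, neither past 1.5-fold. Which transcripts each probe detects was not tested.

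SRF, the partner of the CArG box, was dim and moved little. It read 285 in control cells, 186 with cantharidin and 280 with okadaic acid, or 8.15, 8.49 and 4.82 times the floor. The cantharidin array was the lowest of the 3. The scaled differences were -0.48 (1.39-fold lower) with cantharidin and -0.28 (1.22-fold lower) with okadaic acid, with scanner errors of 0.21 and 0.22. Neither passed 1.5-fold, and the gap between the agents was 0.20. Spots of other probes of like brightness had a spread within an array of 0.07 to 0.11 (SD, log2), which covers spot noise and not variation between cultures.

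Counted together, with the first NAB1 probe, 6 of the 7 genes could be compared with cantharidin, and 4 were at least 1.5-fold higher (EGR1, EGR2, EGR4 and, on its first probe, NAB1) and 0 lower. Among all 16644 genes compared, 26.3% were higher and 34.0% lower, with a median of -0.16 on the log2 scale. With okadaic acid all 7 were compared, with 5 higher (the 4 EGR genes and NAB1) and 0 lower, against 28.0% higher and 27.0% lower of 16166 genes and a median of 0.00. Okadaic acid set against cantharidin gave 3 higher (EGR2, EGR3 and EGR4) and 1 lower (NAB1), where all 16200 genes gave 29.4% higher, 20.5% lower and a median of 0.10. The genes were listed with these contrasts known, so nothing is read from the shares. Both agents were set against the same control array, so their differences are not independent of each other.

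**Figure D3:**
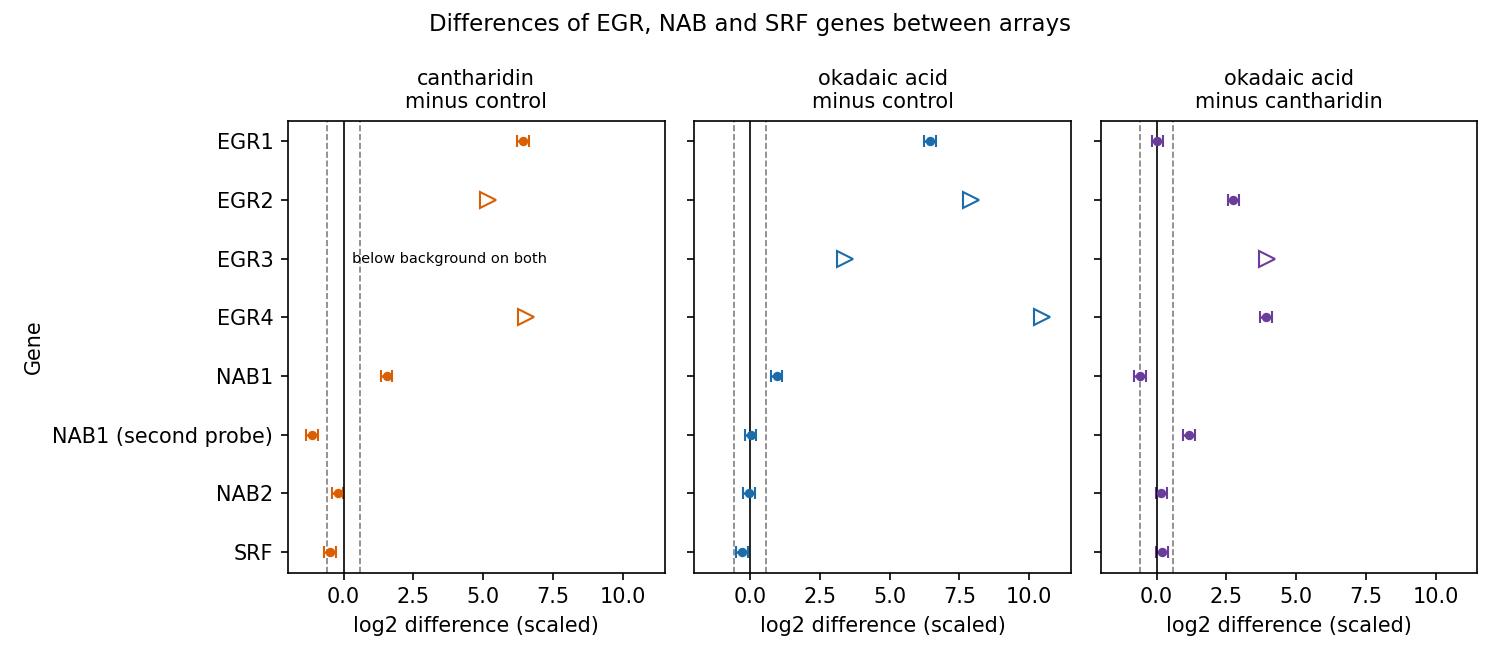
Differences on the log2 scale, after scaling to the 75th percentile of each array, for cantharidin minus control, okadaic acid minus control and okadaic acid minus cantharidin. Dots are measured differences with the scanner error as bars, open triangles are lower bounds where 1 array was below background, and dashed lines mark 1.5-fold. EGR1 sits at 6.42 and 6.45 against control and at 0.03 between the agents, and the 2 NAB1 probes lie on opposite sides of 0 for cantharidin.

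**Figure D4:**
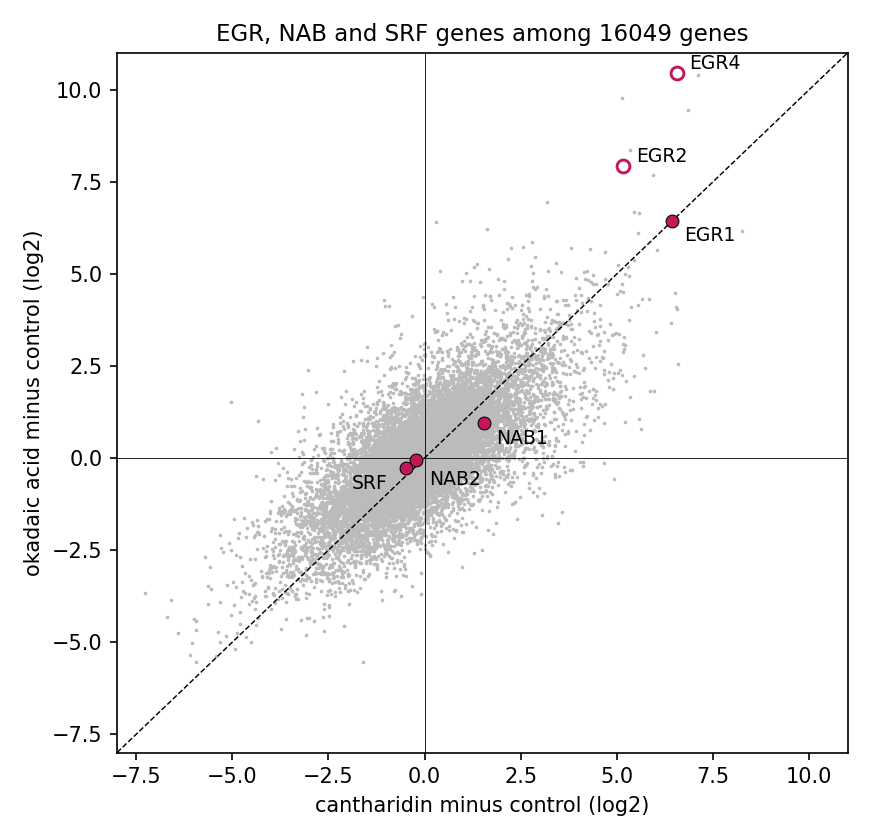
Differences from control on the log2 scale with cantharidin (x axis) and okadaic acid (y axis) for 16049 genes compared in both, in grey, with the EGR, NAB and SRF genes in colour. Open circles are genes whose value is a lower bound, the dashed line marks equal differences, both axes share the control array, and EGR3 is left out because it could not be compared for cantharidin. EGR1 lies on the line, EGR2 and EGR4 lie above it, and NAB2 and SRF lie near the origin.

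The partners of SRF and the target genes of both factor families were then described from lists chosen for what the genes do. The counts are to be read beside the shares of all genes given above, and nothing particular to a list is drawn from them. These shares were 26.3% higher and 34.0% lower with cantharidin and 28.0% higher and 27.0% lower with okadaic acid. For okadaic acid against cantharidin they were 29.4% higher and 20.5% lower. Among the 6 cofactors of SRF, 1 was higher and 2 were lower with cantharidin (median -0.50), and 1 was higher and 3 were lower with okadaic acid (median -0.28). MRTFA, a coactivator released by actin polymerisation, read 194 in control, 399 with cantharidin and 496 with okadaic acid, and was 2.26-fold and 2.13-fold higher. Its relative MRTFB went the other way, from 359 to 122 and 198, or 2.68-fold and 2.16-fold lower. The ETS partner ELK3, often a repressor, was 1.67-fold and 1.60-fold lower. ELK1, the ERK-regulated partner, was at -0.53 with cantharidin and -0.77 with okadaic acid, but its 3 probes ran from -0.77 to 0.34 in the latter. Between the agents MYOCD, the muscle coactivator, passed the threshold, with 1.78-fold more signal under okadaic acid, and so did 1 ELK1 probe that was not the brightest (0.93, against -0.24 on the brightest).

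Of 12 immediate early genes with SRF-dependent promoters, 5 were higher and 4 lower with cantharidin, with a median of -0.08, beside 26.3% and 34.0% of all genes. Okadaic acid gave 8 higher and 0 lower, with a median of 1.25, beside 28.0% and 27.0%. FOS, a subunit of AP-1, read 3434, 8879 and 72510, so that it was highest with okadaic acid, at 17.7-fold over control against 2.85-fold with cantharidin. FOSB, of the same family, was 15.7-fold and 16.4-fold higher, and differed by 0.06 on the log2 scale between the agents. ARC, a regulator of synapses, reached log2 differences of 6.86 and 9.45 (6.01 and 8.56 under normexp). BTG2, which restrains proliferation, was 5.92-fold and 10.2-fold higher, and IER2 1.87-fold and 2.97-fold. The 4 genes that were lower with cantharidin were CCN1 (a matrix protein), DUSP1 (a MAP kinase phosphatase), KLF6 (a zinc finger factor) and NR4A1 (an orphan nuclear receptor), of which KLF6 did not pass 1.5-fold with okadaic acid (0.28) and the other 3 were higher there. NR4A1 was below background with cantharidin, so its value is a bound, which was -0.25 under normexp and -0.52 in the deposited table and then not past 1.5-fold. By the median over its 2 probes KLF6 was at -0.21 with cantharidin, but this takes in a probe below background on all arrays. DUSP1 was at 0.47 with okadaic acid under median scaling. Okadaic acid set directly against cantharidin gave 9 of the 12 higher and 0 lower, with a median of 1.1 on the log2 scale. All genes gave 29.4% higher and 20.5% lower there, with a median of 0.10.

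SRF targets of the actin cytoskeleton gave other counts. Of 14 genes, 9 were lower and 2 higher with cantharidin (median -0.78), beside 34.0% and 26.3% of all genes. With okadaic acid 7 were lower and 1 higher (median -0.58), beside 27.0% and 28.0%. Under normexp the count lower with cantharidin was 7, and the share of all genes lower was not counted there. CNN2, a calponin that binds actin, read 977 in control cells and 65.6 and 230 in treated cells, which is 13.5-fold and 5.07-fold lower. Its log2 difference with cantharidin was -3.76, and -2.68 under normexp. The tropomyosin gene TPM1 was 4.24-fold and 4.02-fold lower, with all 3 of its probes below control by at least 1.60 on the log2 scale. For MYL9, a myosin light chain, cantharidin gave 3.75-fold lower and okadaic acid, where it was below background, at least 4.01-fold lower, and under normexp the log2 differences were -0.92 and -1.09. TAGLN, an actin-binding marker of smooth muscle, was higher with both, by 2.65-fold and 4.15-fold. FHL2, a cofactor that also binds SRF, was 1.70-fold higher with cantharidin and at -0.50 with okadaic acid. Between the agents the list was even, with 3 higher (TAGLN, CNN2 and CCN2) and 3 lower (ACTG1, CNN1 and FHL2). The shares of all genes there were 29.4% and 20.5%.

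Genes described as EGR1 targets numbered 15, of which FASLG and ALOX5 were below background on all arrays. Of the 13 compared, 2 were higher and 8 lower with cantharidin (median -0.75), and 5 were higher and 5 lower with okadaic acid (median -0.49). The shares of all genes were 26.3% and 34.0%, and 28.0% and 27.0%. The RNA of EGR1 itself was 85.8-fold and 87.3-fold higher, and whether EGR1 acted on these genes was not tested. F3, the tissue factor that starts coagulation, was higher with both agents (3.52 and 2.70, or 2.41 and 1.67 under normexp). ATF3, a stress factor, was at 6.41 and 3.67 on its brightest probe, while its 4 probes ran from -0.15 to 6.41 with cantharidin and from -0.47 to 3.67 with okadaic acid, with medians of 2.62 and 0.36. ICAM1 (an adhesion molecule), PDGFA (a growth factor) and ID3 (an inhibitor of helix-loop-helix factors) made up the other higher genes with okadaic acid, at 1.82, 1.42 and 0.93. The second PDGFA probe was at 0.02. Among those lower with okadaic acid were CD44 (an adhesion receptor, -2.35), PTGES (a prostaglandin synthase, -2.04), HPSE (heparanase, -1.05) and TGFB1 (a cytokine, -0.60). These 4 were also lower with cantharidin, PTGES as a bound of at least 13.7-fold (-3.78 on the log2 scale, and -1.82 under normexp). TGFB1 lay near the threshold with okadaic acid, at -0.57 under normexp. In the direct comparison 7 of 13 were higher with okadaic acid and 3 lower (F3, ATF3 and CD44), with a median of 0.65. All genes gave 29.4% higher and 20.5% lower in it, with a median of 0.10.

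**Figure D5:**
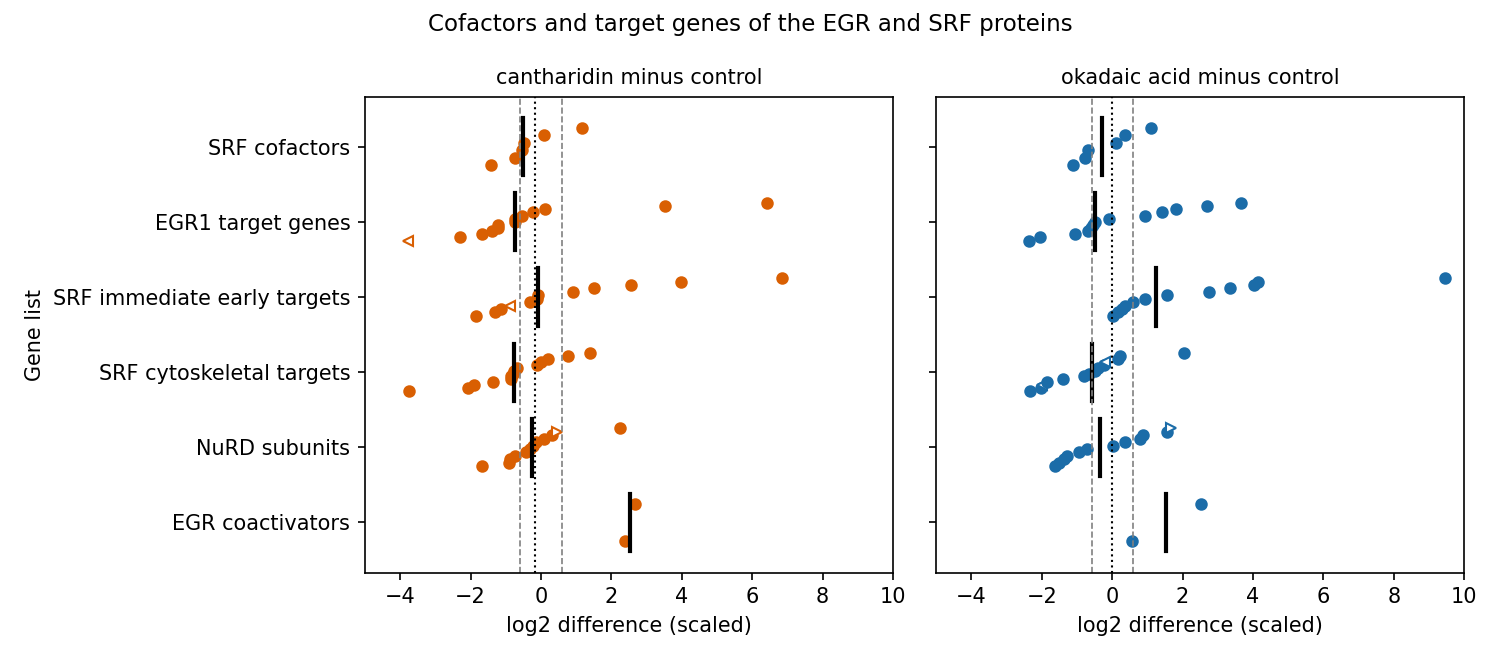
Differences from control on the log2 scale for the genes of 6 lists of cofactors and targets, with cantharidin on the left and okadaic acid on the right. Each dot is 1 gene (open triangles are bounds where 1 array was below background), black bars are list medians, the dotted line is the median of all genes compared and dashed lines mark 1.5-fold. The SRF immediate early list has a median of -0.08 with cantharidin and 1.25 with okadaic acid, while the cytoskeletal list lies lower in both.

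The corepressor side of the loop includes NuRD, the complex that NAB proteins recruit. Of 13 subunits 12 had a matched probe, and MBD3 was not analysed here. With cantharidin 1 was higher and 4 lower (HDAC1, HDAC2, RBBP4 and RBBP7), with a median of -0.26, beside 26.3% and 34.0% of all genes. The deacetylase HDAC2 read 18328 in control cells, 5219 with cantharidin and 13239 with okadaic acid, so that it was 3.19-fold and 1.65-fold lower. With okadaic acid 4 were higher and 6 lower, with a median of -0.35, beside 28.0% and 27.0%. CHD4, the remodelling ATPase that binds NAB2, was 1.71-fold higher with okadaic acid and at -0.15 with cantharidin. The MTA subunits split, since MTA2 was 1.84-fold higher with okadaic acid while MTA1 and MTA3 were 2.57-fold and 3.09-fold lower. GATAD2A was higher with both agents on its brighter probe (4.74-fold and 2.93-fold), but its other probe was at -0.31 with okadaic acid. GATAD2B was below background in control cells and at least 3.20-fold higher with okadaic acid (1.68 on the log2 scale, and 0.85 under normexp). The histone-binding subunits RBBP4 and RBBP7 were lower with both on their brightest probes, by 1.85-fold to 2.83-fold. RBBP4 probes ran from -2.28 to -0.577 with okadaic acid, the latter not past 1.5-fold, and from -1.29 to 0.39 between the agents. Set against cantharidin, okadaic acid gave 5 higher and 4 lower, beside 29.4% and 20.5% of all genes.

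The acetyltransferases EP300 and CREBBP, which act as coactivators of EGR1, were dim in control cells. EP300 read 155, 902 and 1058, and was 6.42-fold and 5.74-fold higher. CREBBP read 101, 483 and 177, which was 5.26-fold higher with cantharidin and 1.47-fold with okadaic acid, so only the former passed 1.5-fold. The log2 difference of CREBBP with cantharidin was 2.40, and 1.57 under normexp, and that of EP300 with okadaic acid was 2.52, and 1.93 under normexp. CREBBP was 3.59-fold lower with okadaic acid than with cantharidin.

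Genes whose promoter window held the same motifs as the members were counted for comparison. Of 219 genes with a CArG box, 22.8% were higher and 33.8% lower with cantharidin, and of 211 such genes 25.1% were higher and 22.3% lower with okadaic acid. Over all genes with a window the shares were 26.3% and 34.6% of 13029, and 28.0% and 27.5% of 12683. Genes with the EGR site gave 30.2% higher and 36.7% lower of 199 with cantharidin, and 30.9% and 31.4% of 194 with okadaic acid. With okadaic acid against cantharidin the CArG genes gave 31.6% higher and 19.6% lower, where all genes with a window gave 29.6% and 20.6%. Genes with the ETS site were higher in 31.4% and lower in 30.9% with cantharidin, and 32.3% and 28.6% with okadaic acid. Those with the CRE core were higher in 29.6% and lower in 32.6% with cantharidin, and 31.5% and 26.9% with okadaic acid. These shares are a description and were not tested.

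Among 14222 genes well above background on all 3 arrays, the 5 with differences most like those of EGR1 were CXCL8, PPP1R10, C11orf96, CHAC1 and GSDMB. Likeness was the Euclidean distance over 2 values, the log2 differences from control with cantharidin and with okadaic acid, both of which rest on 1 control array. The closest was CXCL8, a chemokine, at a distance of 0.87 with differences of 5.57 and 6.65. PPP1R10, a regulatory subunit of protein phosphatase 1 in the nucleus, followed at 0.93 with 5.56 and 6.10. CHAC1, a glutathione-degrading enzyme, was at 1.70, and its 2 probes ran from 3.57 to 5.28 with cantharidin. GSDMB, of the gasdermin family, was at 1.87, so the neighbours of EGR1 were sparse. For NAB2, in contrast, the 5 nearest (VASH2, FLJ42393, TBC1D22A, CABLES2 and AGXT) lay within 0.026, in a region near 0 where many genes lie.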

How the data were processed

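RNA of PANC-1 cells (control, cantharidin or okadaic acid, from the sample titles) was measured on 3 Agilent 1-colour arrays. The authors deposited spot intensity values from Feature Extraction 11.0.1.1, which per the file headers were background-subtracted and spatially detrended with no scaling between arrays. A table of normalized log2 values, also deposited by the authors with its making not given in the sources used here, matched its own arrays (r of at least 0.998, against at most 0.937 otherwise) and served as an alternative. The members and lists were chosen with earlier results of these data known.

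For each probe, spots flagged as outliers were dropped, the log2 intensity of the rest was averaged and the 75th percentile of each array was subtracted. Accessions were matched to RefSeq symbols (GRCh38.p14), naming 25705 probes. The probe brightest in mean log2 signal stood for a gene. A comparison needed signal well above background on either array, and 1.5-fold was the call. A dim side was replaced by the higher of its signal and the floor, giving a bound. Named genes were the 7 members, up to 4 genes per list with the largest difference, genes in counts of 5 or fewer and the 5 nearest to EGR1 and to NAB2. The EGR1 target counts include 1 gene that is not reported here by name. The counting script was checked on simulated data. The planned normexp correction used median spot and background intensity, as the mean was not used here. Tools were Python 3.11.15 (matplotlib 3.10.9, pandas 2.3.3, numpy 2.4.6) and, for normexp, limma 3.58.1 in R 4.3.3. Precision is limited by having 1 array per group.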

Additional observations from a re-analysis of the deposited data

Results flagged for a closer look

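Genes of the EGR1 and SRF target lists at least 1.5-fold lower with cantharidin and at least 1.5-fold higher with okadaic acid are given here, as log2 differences from control, and the difference between the agents' effects was not tested. ID3 was at -1.22 with cantharidin and 0.932 with okadaic acid. NR4A1 was at -0.889 with cantharidin, a bound because it was below background there, and 2.74 with okadaic acid. The cantharidin value was -0.25 under normexp and -0.52 in the deposited table, so it did not pass 1.5-fold there. CCN1 was at -1.84 and 0.931. DUSP1 was at -1.3 and 0.588, the latter only just past 1.5-fold and at 0.47 under median scaling. Both sides of each pair share the control array.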

How the results depend on the processing

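Of 265 recomputed values of single members, 231 moved by less than the scanner error of the difference, 33 moved further and 1 value past 1.5-fold turned direction. EGR1 stayed between 6.28 and 6.49 (cantharidin) and between 6.31 and 6.70 (okadaic acid). Its difference between the agents lay between -0.13 and 0.42. The bounds moved more. With cantharidin EGR2 lay between 3.76 and 7.40 and EGR4 between 4.88 and 7.34, and with okadaic acid EGR4 lay between 8.72 and 11.29, EGR2 between 6.44 and 10.15 and EGR3 between 2.65 and 5.75. The lowest of each came from normexp, which also brought dim list genes such as CNN2, MYL9, PTGES, F3, NR4A1 and CREBBP closer to 0. The median over probes put NAB1 at 0.20 and 0.48 against control, no longer past 1.5-fold, and turned it between the agents to 0.28 and ELK1 with okadaic acid to 0.34, which follows from the disagreement of their probes. The single member lower with okadaic acid than with cantharidin (NAB1) gave 0 under normexp, the 75th percentile of probes detected on all arrays, quantile normalization, no scaling, the deposited table, a 2-fold threshold, the median over probes and outlier spots kept. Without scaling, where the median of all genes was -0.30, 0.24 and 0.49 in the 3 comparisons, 1 member (SRF) was lower with cantharidin, and 7 list genes in place of 11 were lower with okadaic acid than with cantharidin. Requiring detection on all 3 arrays left 2 members higher with each agent and 0 between the agents, since EGR2, EGR3 and EGR4 have a dim array. A 2-fold threshold gave 15 list genes lower with cantharidin (27 at 1.5-fold), 13 with okadaic acid (21), and 14 higher (25) and 7 lower (11) between the agents. The lists held 62 genes, not all of which were compared. The shares of all genes called were not counted under these other settings, the 2-fold threshold among them, so nothing is read from these counts. The cause was not tested where none is given. No paired analysis was possible because each group had 1 array. Signal over background limits EGR2, EGR3 and EGR4 in control cells.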
